A study of Mus musculus with 4 samples.

Results

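The 9 genes of cytokine signaling, *Socs1*, *Socs2*, *Socs3*, *Cish*, *Stat2*, *Stat3*, *Stat4*, *Stat5a* and *Pim1*, were followed across the cell types of the mouse liver. They were chosen by symbol, and all 9 were found once each among the 31053 genes counted. Many cytokines act through receptors that carry Janus kinases (JAKs). The kinases phosphorylate STAT proteins, which then enter the nucleus and switch genes on. Among the genes that STATs switch on are those of the SOCS family and CISH, which bind receptors or kinases and damp the same signal, and that of the kinase PIM1, which favors survival and growth. In liver inflammation these genes are known as readouts of interferons, IL-6, IL-2 and related cytokines.

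The cells were liver mononuclear cells of C57BL/6 mice aged 8 to 10 weeks, measured by droplet single-cell RNA sequencing at the 5′ end of transcripts. ConA (concanavalin A), a lectin from plants, activates T cells and causes hepatitis, TCDD is a dioxin that activates the aryl hydrocarbon receptor (AhR), and FICZ is another ligand of this receptor. The 4 groups were untreated mice (Naïve), mice given ConA and then vehicle (ConA+Veh), ConA and then TCDD (ConA+TCDD), and ConA and then FICZ (ConA+FICZ). In the study the vehicle was corn oil, it and TCDD followed ConA by 1 hour, and livers were taken at 24 hours. Its text does not describe the FICZ mice. All 3 ConA groups share the lectin, and only Naïve lacks it.

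Each group was 1 library, and the number of mice behind a library is not given in the sources used here. Every comparison is therefore between single libraries and without a test or p-value. The libraries held 1880 to 2779 cells, 5952445 to 19252211 unique molecular identifiers (UMIs, each a counted RNA molecule) and a median of 2161 to 3984 UMIs per cell, lowest in Naïve. Pairs of libraries shared 4 to 15 cell barcodes. Cells were gated on marker genes, at least 3 detected per cell, into B-like, CD8 T-like, CD4 T-like, other T-like (neither or both of *Cd4* and the CD8 genes), NK-like, mononuclear phagocyte-like (monocytes, macrophages and dendritic cells) and neutrophil-like cells, and into 5 rare classes. Genes that led a gate included its own markers, such as *Cd79a* for B-like and *S100a9* for neutrophil-like cells. The gating fixed these in advance, so they do not check it. *Gzma*, which led NK-like cells, was not among the gate markers. No gate was reached by 9.68% of the cells of Naïve, 15.7% of ConA+Veh, 27.8% of ConA+TCDD and 13.2% of ConA+FICZ. Hepatocyte marker RNA, 8 genes, summed to 87.7 CPM in the B-like cells of ConA+FICZ against 0.485 to 35.4 CPM in the other libraries. The ConA+FICZ library also had 187 hepatocyte-like cells against 2 to 21 elsewhere.

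Where 4 values follow each other with no library named, they are those of Naïve, then ConA+Veh, ConA+TCDD and last ConA+FICZ. A level is the number of UMIs of a gene in a class per 1000000 UMIs of that class (CPM). Ranges in parentheses are exact 95% intervals, Poisson for a CPM and binomial for a share or a ratio. They cover counting error only. Levels of different genes were not compared, since the assay reads transcript ends and capture differs between genes. A gene in a class was compared between 2 libraries when each had at least 50 cells of the class and both together at least 50 UMIs of the gene. It is called higher or lower from 2-fold on.

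Windows of the 250 bases before the starts annotated by RefSeq (GRCm38.p6) numbered 11 for 8 of the 9 genes, and *Socs2* was not among them. These starts are not always the gene ends of GENCODE that are given below. Several windows, among them those of *Socs3*, *Cish* and *Stat5a*, lie inside the gene as GENCODE places it. The *Cish* window is covered wholly by annotated exon. They were searched on both strands for the STAT motif TTCNNNGAA, the interferon element (GAAA, any 2 bases, GAAA) and the AhR element TNGCGTG. *Socs1*, *Socs3*, *Stat2* and *Stat4* held a match, and the 4 windows shown were picked by that match. The windows of *Cish*, *Stat3*, *Stat5a* and *Pim1* and the first one of *Stat4* held none. Capitals mark the matched letters. *Socs1* held 2 interferon elements that overlap each other, starting 83 and 77 bases before the gene start. *Stat2* held 1 interferon element at 222 bases on the other strand, and the second start of *Stat4* 1 at 97 bases. *Socs3* held 1 STAT motif at 154 bases before its RefSeq start.
Socs1, chr16:10785537-10785786, minus strand: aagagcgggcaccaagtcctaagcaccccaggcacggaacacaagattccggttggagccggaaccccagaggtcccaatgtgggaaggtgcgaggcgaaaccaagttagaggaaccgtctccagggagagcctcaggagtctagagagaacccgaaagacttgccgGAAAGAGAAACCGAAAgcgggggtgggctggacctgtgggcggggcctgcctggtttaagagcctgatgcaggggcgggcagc
Stat2, chr10:128270248-128270497, plus strand: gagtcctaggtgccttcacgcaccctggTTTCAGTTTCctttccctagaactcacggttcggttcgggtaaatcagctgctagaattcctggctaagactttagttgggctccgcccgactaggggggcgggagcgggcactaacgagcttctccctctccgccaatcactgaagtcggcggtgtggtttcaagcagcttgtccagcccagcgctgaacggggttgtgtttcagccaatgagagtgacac
Stat4 (second start), chr1:52007990-52008239, plus strand: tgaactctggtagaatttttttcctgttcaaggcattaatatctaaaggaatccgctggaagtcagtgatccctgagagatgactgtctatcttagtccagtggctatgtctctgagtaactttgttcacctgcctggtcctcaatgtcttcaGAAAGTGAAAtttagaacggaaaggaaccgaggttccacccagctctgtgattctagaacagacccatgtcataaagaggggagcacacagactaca
Socs3, chr11:117969452-117969616, minus strand: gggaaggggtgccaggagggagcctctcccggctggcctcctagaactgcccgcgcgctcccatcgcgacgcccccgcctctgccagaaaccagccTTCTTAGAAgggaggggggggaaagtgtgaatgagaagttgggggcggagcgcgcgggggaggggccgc
The *Socs3* line covers the bases from 250 to 86 before its RefSeq start, since an annotated exon of another *Socs3* transcript follows. Of all 32851 promoter windows of this length, 7.02% held the STAT motif, 2.98% the interferon element and 4.10% the AhR element. No window of the 8 genes held the letters of the AhR element. A match is a description of the letters and not a binding site.

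The inhibitors of the SOCS family come first, and the plot of levels by class and library shows all 9 genes. *Socs1* lies on chromosome 16 (GRCm38, 10782240 to 10785536, minus strand, ENSMUSG00000038037), and its protein blocks JAKs, above all after interferon gamma. In Naïve it was highest in NK-like cells at 115 CPM (74.9 to 168), followed by other T-like cells at 92.5, CD8 T-like cells at 66.3 and CD4 T-like cells at 63.3 CPM. It was lower in B-like cells at 22.2 CPM and mononuclear phagocyte-like cells at 13.1 CPM. Neighbors in this order overlapped in their intervals, except CD4 T-like and B-like cells.

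**Figure D1:**
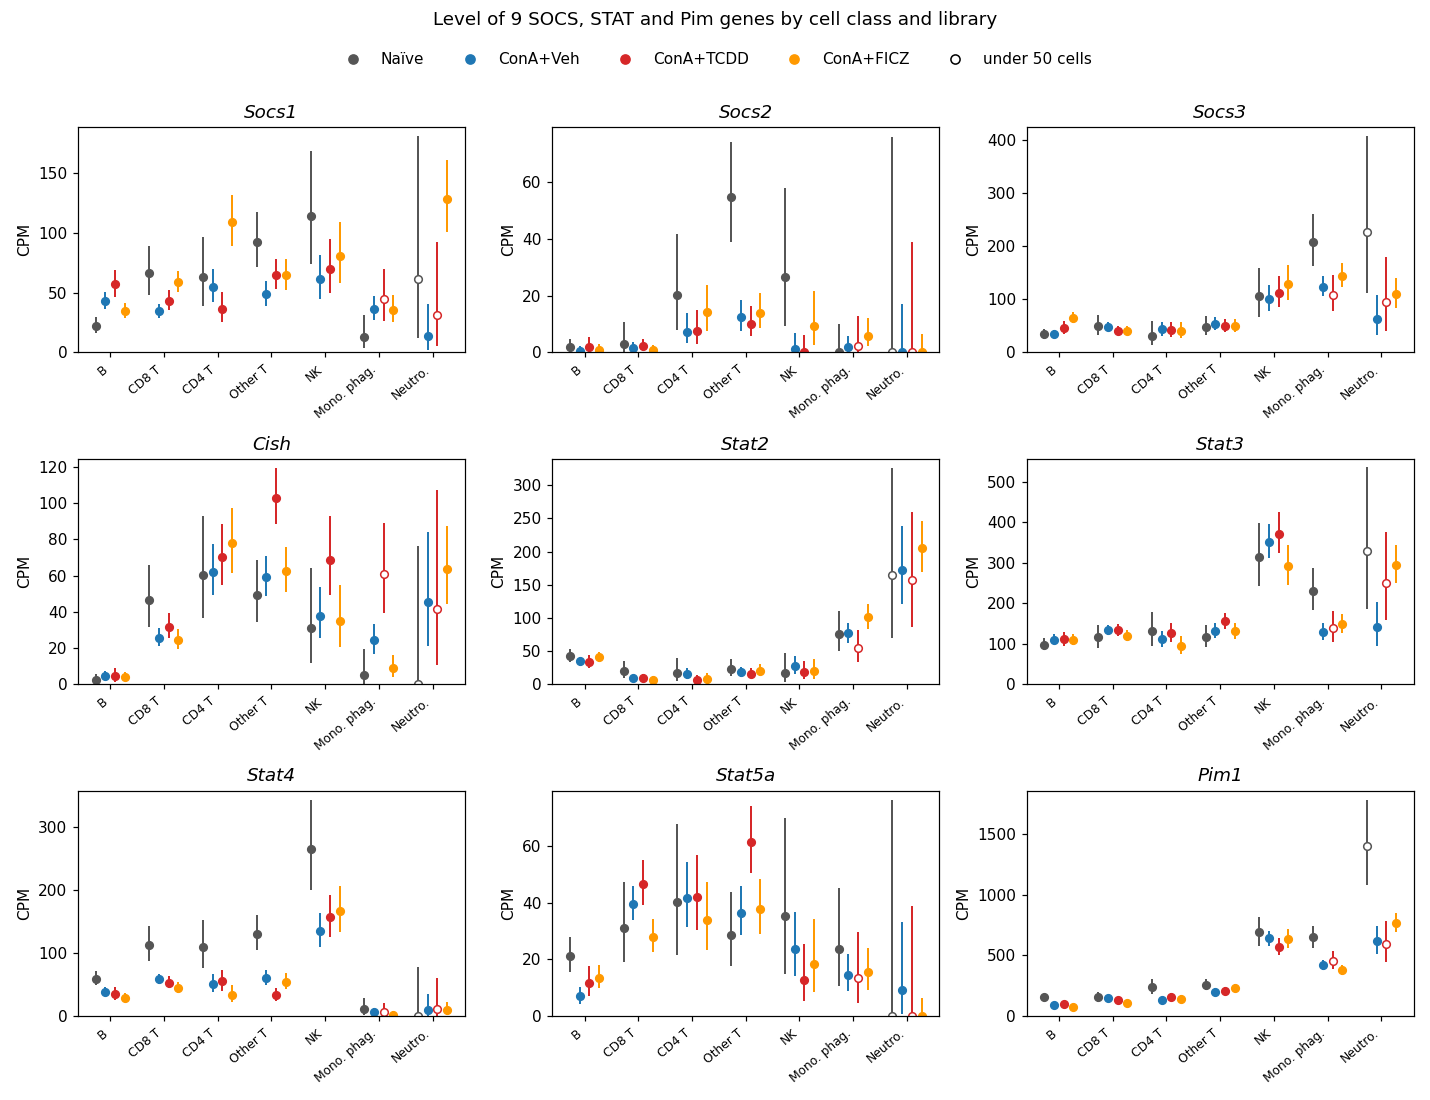
Level of each gene (CPM, linear axis from 0, a scale of its own per panel) in 7 cell classes of the 4 libraries; points are levels, bars exact 95% Poisson intervals, and open points classes of under 50 cells. *Stat4* was highest in NK-like cells of all 4 libraries and *Cish* was near 0 in B-like cells, while *Socs1* in neutrophil-like cells stood out in ConA+FICZ.

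*Socs1* differed between libraries in opposite directions in different classes. In mononuclear phagocyte-like cells it was 13.1 CPM in Naïve (5 UMIs), 36.3 in ConA+Veh (60 UMIs), 45.0 in ConA+TCDD (20 UMIs, 43 cells) and 35.5 in ConA+FICZ (48 UMIs). The 3 ConA libraries were above Naïve, and ConA+Veh over Naïve was 1.47 on the log2 scale (0.16 to 3.14), the only pair of the 9 genes and a class called higher in that comparison, in which 9.23% of all genes tested in the same classes were at least 2-fold higher. One cell held 11 of the 60 UMIs of ConA+Veh, and 34 of 211 cells held any. Monocyte and macrophage markers in this class summed to 16405 CPM in Naïve and 7422 in ConA+Veh, and their part in the value was not tested. In B-like cells *Socs1* was 22.2 CPM in Naïve, 43.3 in ConA+Veh, 57.3 in ConA+TCDD and 34.8 in ConA+FICZ. Naïve was the lowest, and the log2 ratio of ConA+Veh over Naïve was 0.96 (0.54 to 1.41), while the median over all genes in B-like cells was -0.27. In the lymphocytes with the highest Naïve levels the ratio pointed the other way: -0.95 in CD8 T-like, -0.92 in other T-like and -0.90 in NK-like cells, each within 2-fold.

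The largest difference of *Socs1* was in neutrophil-like cells. It stood at 61.6 CPM in Naïve (3 UMIs in 23 cells), 13.6 in ConA+Veh (3 UMIs in 89 cells), 31.3 in ConA+TCDD (3 UMIs in 43 cells) and 128 in ConA+FICZ (79 UMIs in 247 cells). ConA+FICZ lay above both other ConA libraries, and its log2 ratio over ConA+Veh was 3.24 (1.64 to 5.55). In that class and comparison 8.65% of the 1722 genes tested were at least 2-fold higher and 2.09% lower. The UMIs came from 51 cells, with at most 6 in 1 cell. Cells were also thinned to 1000 UMIs each, and shallower cells were left out. Of the cells kept, 11.6% in ConA+FICZ held a *Socs1* UMI (7.63 to 16.6) against 0 of 76 in ConA+Veh, which allows a share of up to 3.95%. Without thinning the shares over all cells of the class were 20.6% and 3.37%, at median depths of 2106 and 2208 UMIs. The 8 hepatocyte markers summed to 172 CPM in these ConA+FICZ cells and to 0 in those of ConA+Veh. In the hepatocyte-like cells of ConA+FICZ *Socs1* was 7.34 CPM (2 UMIs). The part of hepatocyte RNA in the *Socs1* values was not tested.

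Among T-like cells *Socs1* was also highest in ConA+FICZ of the 3 ConA libraries in CD4 and CD8 T-like cells. In CD4 T-like cells it was 63.3 CPM in Naïve, 54.9 in ConA+Veh, 36.5 in ConA+TCDD and 109 in ConA+FICZ. ConA+TCDD was the lowest and ConA+FICZ the highest, and the ratio of ConA+FICZ over ConA+TCDD, both given an AhR ligand, was 1.58 (1.04 to 2.14), a call that is lost with the mean of per-cell levels (0.71). Over the shared control ConA+Veh, the ratios were 0.99 (0.56 to 1.43) for ConA+FICZ and -0.59 (-1.19 to -0.01) for ConA+TCDD. The UMIs of the 80 CD4 T-like cells of ConA+FICZ came from 44 cells, with 12 in the highest cell. In CD8 T-like cells *Socs1* was 66.3, 34.4, 43.4 and 59.0 CPM, and the ratio of ConA+FICZ over ConA+Veh was 0.78 (0.49 to 1.07). In B-like cells the order was turned, with ConA+TCDD over ConA+Veh at 0.40 and ConA+FICZ over ConA+Veh at -0.32. B-like cells with any UMI of *Cd86*, *Cd200* or *Mreg*, used here as activation markers, had 31.8 CPM of *Socs1* in ConA+Veh and 65.3 in ConA+TCDD, a difference of 1.04 (0.53 to 1.55) on the log2 scale. In those without these markers the ratio was -0.10, and there *Socs1* rose by 1.29 (0.76 to 1.84) in ConA+Veh over Naïve, from 21.4 to 52.2 CPM. This split depends on depth and was not checked as a measure of activation. The 3 markers summed to 127 CPM in all B-like cells of Naïve, 80.0 in ConA+Veh, 157 in ConA+TCDD and 89.1 in ConA+FICZ.

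*Socs3* lies on chromosome 11 (117966079 to 117970047, minus strand, ENSMUSG00000053113), and its protein shuts off the IL-6 receptor chain gp130. Among the Naïve classes of at least 50 cells it was highest in mononuclear phagocyte-like cells at 207 CPM (164 to 258), above NK-like cells at 106 CPM (67.8 to 157) without overlap. The other such classes lay between 31.6 and 49.4 CPM, and the 23 neutrophil-like cells of Naïve were at 226 CPM (11 UMIs). Mononuclear phagocyte-like cells had 207, 123, 108 and 144 CPM. Naïve was the highest, and ConA+Veh over Naïve was -0.75 (-1.13 to -0.36) on the log2 scale. Endothelial-like cells, a rare class, had 194 CPM in ConA+Veh (46 UMIs in 54 cells). The largest ratio of *Socs3* between ConA libraries, among the classes compared, was in B-like cells, with 34.3, 34.7, 46.1 and 65.3 CPM. The log2 ratio of ConA+FICZ over ConA+Veh was 0.91 (0.63 to 1.20), just inside 2-fold. It was 1.02 in B-like cells with activation markers and 0.87 in those without. In CD4, CD8 and other T-like and NK-like cells the log2 ratios of *Socs3* lay between -0.26 and 0.45 in the 4 comparisons.

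*Cish* lies on chromosome 9 (107296026 to 107302784, plus strand, ENSMUSG00000032578) and overlaps the predicted genes *Gm17040* and *Gm17041* on the other strand. Its protein restrains IL-2 receptor and T cell receptor signals. In Naïve it was 60.4 CPM in CD4 T-like, 49.5 in other T-like, 46.6 in CD8 T-like and 30.9 in NK-like cells, against 2.26 CPM (6 UMIs in 1070 cells) in B-like cells. B-like cells had 3.81 to 4.37 CPM in the ConA libraries. Neutrophil-like cells had 0 UMIs in 23 cells of Naïve, 45.4 CPM in ConA+Veh (10 UMIs), 41.7 in ConA+TCDD (4 UMIs) and 63.4 in ConA+FICZ (39 UMIs, 45.1 to 86.7), which in ConA+FICZ was above CD8 T-like cells at 24.5 CPM (19.8 to 30.0).

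In other T-like and NK-like cells *Cish* was highest in ConA+TCDD. In other T-like cells it was 49.5, 59.2, 103 and 62.4 CPM. ConA+TCDD stood above the other libraries without overlap of intervals (89.0 to 119), and its log2 ratio over ConA+Veh was 0.80 (0.47 to 1.14). In NK-like cells the levels were 30.9, 37.8, 68.6 and 34.9 CPM, with a ratio of 0.86 (0.17 to 1.57). The ratio of ConA+FICZ over ConA+Veh was 0.08 in other T-like and -0.11 in NK-like cells. In CD4 and CD8 T-like cells the ratios of ConA+TCDD were 0.17 and 0.31, with intervals that held 0. All 4 classes with enough UMIs had a ratio above 0, each within 2-fold, and 2 had their interval above 0. The medians over all genes in these 4 classes lay between -0.09 and -0.01 in this comparison. After thinning, 13.5% of other T-like cells held a *Cish* UMI in ConA+TCDD (9.56 to 18.2), against 3.59%, 6.22% and 4.55% in Naïve, ConA+Veh and ConA+FICZ. Without thinning the shares were 42.8% in ConA+TCDD and 11.0%, 32.8% and 30.2% in the other libraries, in the same order. As a background, 2 of 39 thinned erythroid-like cells of ConA+TCDD and 0 of 29 of ConA+Veh held one, at median depths of 1603 and 1275 UMIs against 5280.5 and 5362 UMIs in other T-like cells. Of other T-like cells, 81 of 264 in ConA+TCDD and 36 of 244 in ConA+Veh sat at the minimum of 3 T cell markers. Cells with no *Cd52* UMI and at least 3 *Rbm3* UMIs were 83 of the 264 in ConA+TCDD, against 2 of 236, 1 of 244 and 8 of 202 in Naïve, ConA+Veh and ConA+FICZ. Without them the *Cish* ratio of ConA+TCDD over ConA+Veh was 0.55. Summed NK markers of other T-like cells were 81.2 CPM in ConA+TCDD and 126 in ConA+Veh and cell cycle markers 527 and 1184 CPM, and the part of these differences in the *Cish* value was not tested.

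In mononuclear phagocyte-like cells *Cish* was 5.25 CPM in Naïve (2 UMIs), 24.2 in ConA+Veh (40 UMIs), 60.7 in ConA+TCDD (27 UMIs) and 8.89 in ConA+FICZ (12 UMIs). ConA+FICZ fell by 1.44 on the log2 scale against ConA+Veh (-2.51 to -0.49). The call is lost with the mean of per-cell levels (-0.44), and with 4 markers for a gate or a minimum of 100 UMIs the pair had too few UMIs to count. T cell markers in the class summed to 29.0 CPM in ConA+Veh and 7.41 in ConA+FICZ, and cell cycle markers to 642 and 270 CPM. ConA+TCDD was higher than ConA+Veh by 1.33 (0.57 to 2.07), but rests on 43 cells and so was not counted. In those 43 cells the granulocyte progenitor markers summed to 387 CPM against 159 in ConA+Veh, and the T cell markers to 15.7 CPM. The part of these markers in the *Cish* values was not tested. Over all cells of a library, gated or not, *Cish* was 21.3, 28.2, 52.4 and 27.6 CPM, a log2 ratio of 0.89 (0.73 to 1.06) for ConA+TCDD over ConA+Veh. In such sums fewer cells of a type and less RNA per cell cannot be told apart.

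*Socs2*, on chromosome 10 (95385362 to 95417180, minus strand, ENSMUSG00000020027), restrains growth hormone signals, and it had the fewest UMIs of the 9 genes, 86 to 120 per library. It reached 54.7 CPM (39.5 to 74.0) in the other T-like cells of Naïve. In the same class ConA+Veh had 12.3 CPM, ConA+TCDD 10.1 and ConA+FICZ 13.9 CPM. The Naïve level lay above all 3 ConA libraries without overlap, and *Socs2* fell by 2.15 on the log2 scale in ConA+Veh against Naïve (-2.92 to -1.41). The 42 Naïve UMIs came from 28 cells with at most 4 in 1 cell. NK markers in this class summed to 274 CPM in Naïve and 126 CPM in ConA+Veh, and their part in the fall was not tested. Endothelial-like cells also held *Socs2*, at 84.3 CPM in ConA+Veh (20 UMIs) and 77.2 CPM in ConA+FICZ (11 UMIs). Neutrophil-like cells had none in any library, and in ConA+FICZ 0 UMIs allow a level of up to 4.88 CPM.

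The STAT genes code for the factors that carry the signal. *Stat4*, on chromosome 1 (51987148 to 52107189, plus strand, ENSMUSG00000062939), serves IL-12 in NK and T cells. It overlaps the predicted genes *Gm28177* on its own strand and *Gm3940* on the other. It was highest in NK-like cells of every library, without overlap with the next class. NK-like cells had 265 CPM in Naïve (202 to 341), 134 in ConA+Veh (111 to 162), 156 in ConA+TCDD and 167 in ConA+FICZ. T-like cells of Naïve followed at 109 to 130 CPM and B-like cells at 59.2 CPM. Mononuclear phagocyte-like cells had 2.22 to 10.5 CPM, and pDC-like, hepatocyte-like and erythroid-like cells had no *Stat4* UMI in any library. Of 39 thinned erythroid-like cells of ConA+TCDD 0 held one, which allows a share of up to 7.69%.

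*Stat4* was lower in ConA+Veh than in Naïve in all 5 lymphoid classes. CD4 T-like cells had 109, 51.3, 55.2 and 33.8 CPM. Other T-like cells had 130, 60.6, 33.1 and 54.6 CPM, and CD8 T-like cells 113, 58.7, 52.8 and 44.9 CPM. In each of these classes Naïve was the highest of the 4 libraries and its interval overlapped none of the others. *Stat4* fell by 1.09 (-1.68 to -0.48) in CD4 T-like and by 1.10 (-1.49 to -0.71) in other T-like cells on the log2 scale. With the mean of per-cell levels, which also corrects for depth, both calls are lost (-0.42 and -0.64). The ratio was -0.98 in NK-like, -0.94 in CD8 T-like and -0.61 in B-like cells, within 2-fold. The medians over all genes in these 5 classes ran from -0.27 in B-like to 0.13 in CD4 T-like cells. The share of all genes at least 2-fold lower ran from 6.94% in CD4 T-like to 17.0% in B-like cells. Among CD8 T-like cells 280 of 380 in ConA+Veh and 4 of 169 in Naïve held at least 2 cell cycle markers. In those with fewer, *Stat4* was 117 CPM in Naïve and 58.8 in ConA+Veh, a ratio of -0.99 (-1.56 to -0.43). In other T-like cells the NK markers summed to 274, 126, 81.2 and 96.4 CPM, and their part in the *Stat4* values was not tested. After thinning, 23.1% of NK-like cells held a *Stat4* UMI in Naïve and 12.3% in ConA+Veh, against 37.5% and 32.9% without thinning.

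ConA+TCDD and ConA+FICZ differed in *Stat4* within T-like cells. In other T-like cells the ratio of ConA+TCDD over ConA+Veh was -0.87 (-1.33 to -0.42), and that of ConA+FICZ over ConA+Veh was -0.15 (-0.55 to 0.24). Without the cells that had no *Cd52* and at least 3 *Rbm3* UMIs, 83 of 264 in ConA+TCDD and 1 of 244 in ConA+Veh, the first ratio was -0.72, and cell cycle markers in the class summed to 527 and 1184 CPM, whose part was not tested. In CD4 T-like cells the same ratios were 0.11 (-0.42 to 0.63) and -0.60 (-1.22 to 0.00). None reached 2-fold, and both comparisons share the ConA+Veh library. Of other T-like cells 4.62% held a *Stat4* UMI in ConA+TCDD after thinning (2.41 to 7.92) and 10.8% in ConA+Veh (7.17 to 15.4), against 18.6% and 34.8% without thinning.

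*Stat2*, on chromosome 10 (128270559 to 128292849, plus strand, ENSMUSG00000040033), carries the type I interferon signal together with IRF9. Its levels were high in myeloid, pDC-like and endothelial-like cells. Neutrophil-like cells had 164, 173, 156 and 205 CPM, with overlapping intervals. Mononuclear phagocyte-like cells had 76.1, 76.8, 54.0 and 101 CPM, and pDC-like cells, 11 to 17 per library, 150 to 333 CPM. Endothelial-like cells had 132 CPM in Naïve (17 UMIs), 131 in ConA+Veh (31 UMIs), 105 in ConA+TCDD (3 UMIs) and 105 in ConA+FICZ (15 UMIs). CD8 T-like cells were near the low end with 19.8 CPM in Naïve (14 UMIs) and 9.45 in ConA+Veh (47 UMIs). *Stat2* fell there by 1.06 on the log2 scale (-1.95 to -0.09), and this direction turned when the mean of per-cell levels was used (0.075). Erythroid-like cells of ConA+TCDD had 151 CPM (16 UMIs in 7 of 51 cells), against 1 UMI in 41 cells of ConA+Veh.

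*Stat3*, on chromosome 11 (100885098 to 100939540, minus strand, ENSMUSG00000004040), serves IL-6, IL-10 and IL-21 and was read in nearly all classes. NK-like cells had 313, 352, 372 and 292 CPM, with overlapping intervals, and B-like cells 98.0 to 112 CPM. CD8 T-like cells ranged from 116 to 134 CPM. In mononuclear phagocyte-like cells Naïve was the highest, at 231 CPM against 129 in ConA+Veh, a ratio of -0.84 (-1.20 to -0.46). In neutrophil-like cells *Stat3* was 329, 141, 250 and 294 CPM. ConA+Veh was the lowest, and *Stat3* rose by 1.06 (0.51 to 1.66) in ConA+FICZ over ConA+Veh. Of all genes tested in this class and comparison, 8.65% were at least 2-fold higher.

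*Stat5a*, on chromosome 11 (100859351 to 100885169, plus strand, ENSMUSG00000004043), carries signals of IL-2, IL-7 and other cytokines. Its end overlaps the end of *Stat3* on the opposite strand, and its close paralog *Stat5b* starts 8626 bases beyond its other end, so reads of shared sequence could be lost or split. It was 27.9 to 61.4 CPM in the 3 T-like classes and 12.8 to 35.3 CPM in NK-like cells over the 4 libraries. In B-like cells it was 21.1 CPM in Naïve, 6.93 in ConA+Veh, 11.6 in ConA+TCDD and 13.6 in ConA+FICZ. Naïve was the highest, and *Stat5a* fell by 1.61 on the log2 scale in ConA+Veh (-2.28 to -0.95), within 2-fold as a mean of per-cell levels (-0.92). Of all genes tested in B-like cells, 17.0% were at least 2-fold lower in this comparison. For *Stat5a* ConA+FICZ over ConA+Veh was 0.97 (0.32 to 1.64) and ConA+TCDD over ConA+Veh 0.75 (-0.08 to 1.56). In other T-like cells *Stat5a* was 28.7, 36.5, 61.4 and 37.9 CPM, with ConA+TCDD highest and a ratio of 0.75 (0.32 to 1.19) over ConA+Veh. Without the same *Cd52* and *Rbm3* cells this ratio was 0.12. CD8 T-like cells with fewer than 2 cell cycle markers had 36.9 CPM in ConA+Veh and 77.9 in ConA+TCDD, a ratio of 1.08 (0.40 to 1.79). This pair passed the minimum of UMIs only through ConA+TCDD, and 2.21% of all genes tested there were at least 2-fold higher. Cells that reached no gate had 31.6 and 65.9 CPM, a ratio of 1.06 (0.45 to 1.71), where 1.94% of all genes tested were at least 2-fold higher. These 2 classes are outside the counted pairs. Neither ratio was taken without the *Cd52* and *Rbm3* cells. Such cells were 24 of 251 CD8 T-like cells in ConA+TCDD and 1 of 380 in ConA+Veh. Over all cells, gated or not, they were 280 of 1880 and 26 of 2779.

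*Pim1*, on chromosome 17 (29490753 to 29496112, plus strand, ENSMUSG00000024014), codes for a kinase that STAT5 and STAT3 switch on, and it overlaps *Gm26885* on the other strand. It was highest in neutrophil-like, NK-like and mononuclear phagocyte-like cells. NK-like cells had 688, 639, 572 and 634 CPM, with overlapping intervals. Neutrophil-like cells had 618 CPM in ConA+Veh, 595 in ConA+TCDD and 764 in ConA+FICZ, and 1397 CPM (68 UMIs) in only 23 Naïve cells. B-like and CD8 T-like cells had 70.3 to 158 CPM. In all 6 classes compared the ratio of ConA+Veh over Naïve was below 0, from -0.85 in CD4 T-like and -0.80 in B-like cells to -0.08 in CD8 T-like cells, each within 2-fold. The interval lay below 0 in 4 of the 6. The medians over all genes in these classes ran from -0.27 in B-like to 0.13 in CD4 T-like cells. B-like cells with activation markers had 166 CPM in Naïve and 72.6 in ConA+Veh, a fall of *Pim1* by 1.19 on the log2 scale (-1.54 to -0.85). Their median depths were 2433.5 and 6284.5 UMIs, and depth bears on which cells show a marker. Erythroid-like cells held *Pim1* at 307 CPM in ConA+Veh and 536 in ConA+TCDD.

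Counted together, 41 pairs of a gene and a class could be compared for ConA+Veh over Naïve, and 1 was higher and 5 were lower. The higher pair was *Socs1* in mononuclear phagocyte-like cells, which passed the minimum of UMIs only through ConA+Veh. The lower pairs were *Stat4* in CD4 T-like and other T-like cells, *Stat5a* in B-like, *Stat2* in CD8 T-like and *Socs2* in other T-like cells. Of all genes tested in the same classes 9.23% were at least 2-fold higher and 11.0% lower, against 2.44% and 12.2% of these pairs. For ConA+TCDD over ConA+Veh 0 of 36 pairs reached 2-fold in either direction, where 0.546% of all genes were higher and 1.48% lower. For ConA+FICZ over ConA+Veh 48 pairs were compared, of which *Socs1* and *Stat3* in neutrophil-like cells were higher and *Cish* in mononuclear phagocyte-like cells lower, beside 1.42% and 1.54% of all genes. In neutrophil-like cells alone, which held both higher pairs, 8.65% of the genes tested were at least 2-fold higher. *Socs1* and *Stat3* in these cells each passed the minimum of UMIs only through ConA+FICZ. For ConA+FICZ over ConA+TCDD 1 of 36 pairs was higher, *Socs1* in CD4 T-like cells, and none was lower, beside 1.48% and 1.04%. That pair, too, passed the minimum of UMIs only through ConA+FICZ. The shares of these pairs are read on few pairs, and the comparisons with ConA+Veh share that library.

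**Figure D2:**
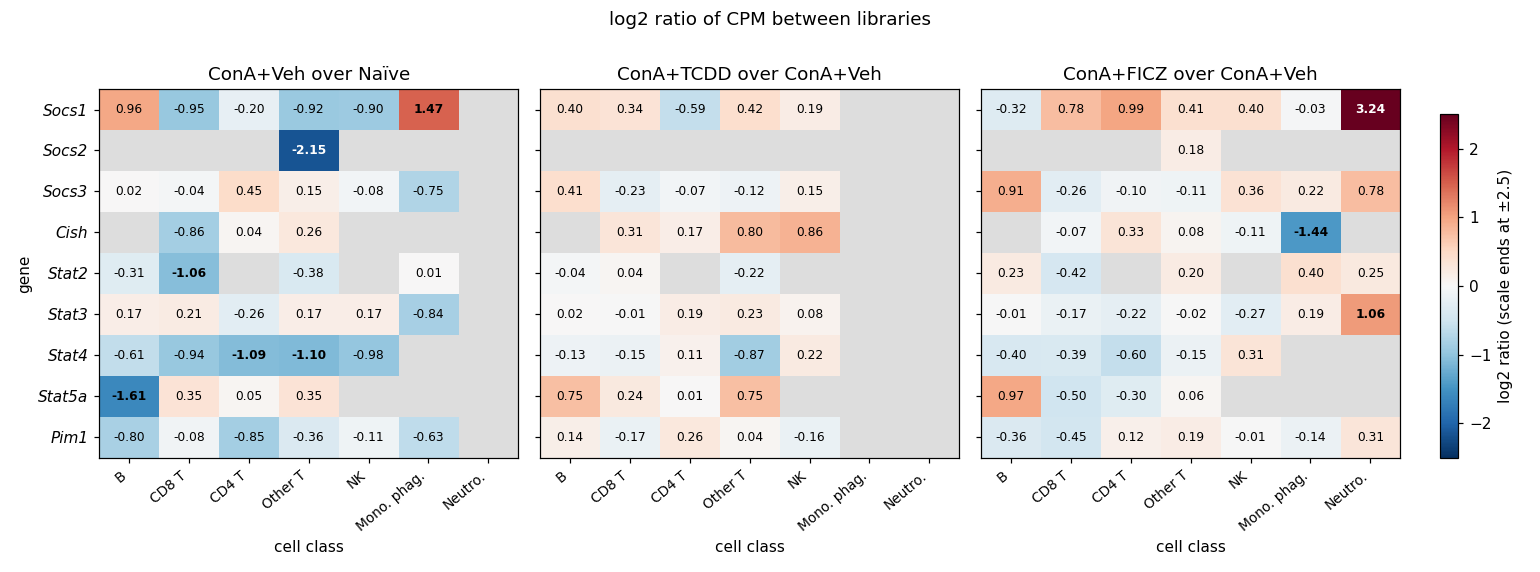
log2 ratio of CPM between libraries for 9 genes (rows) and 7 cell classes (columns), with the value in each cell, bold from 2-fold on; gray cells had under 50 UMIs or under 50 cells. *Stat4* was below 0 in all 5 lymphoid classes for ConA+Veh over Naïve, no value reached 2-fold for ConA+TCDD over ConA+Veh, and *Socs1* in neutrophil-like cells reached 3.24 for ConA+FICZ over ConA+Veh.

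Depth bore on the comparison with Naïve. The mean T-like or B-like cell of ConA+Veh held more UMIs than that of Naïve, 13091 against 4193 in CD8 T-like and 5805 against 2480 in B-like cells. Leaving out the depth correction shifted every gene by the same amount within a class, from 0.71 in NK-like to 1.64 in CD8 T-like cells on the log2 scale. Counted per cell and with no correction for depth, *Stat4* was 0.48 UMIs per CD4 T-like cell in Naïve and 0.58 in ConA+Veh, so the direction turned to 0.27 on the log2 scale. In other T-like cells it was 0.42 and 0.52 UMIs per cell. In NK-like cells *Stat4* remained lower in ConA+Veh per cell too, with 0.58 and 0.48 UMIs. Of the 26 pairs below 0 per UMI, 21 were above 0 per cell. This follows from the shift of each class and is no finding about the 9 genes. The plot of ratios per UMI and per cell shows this for each pair.

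**Figure D3:**
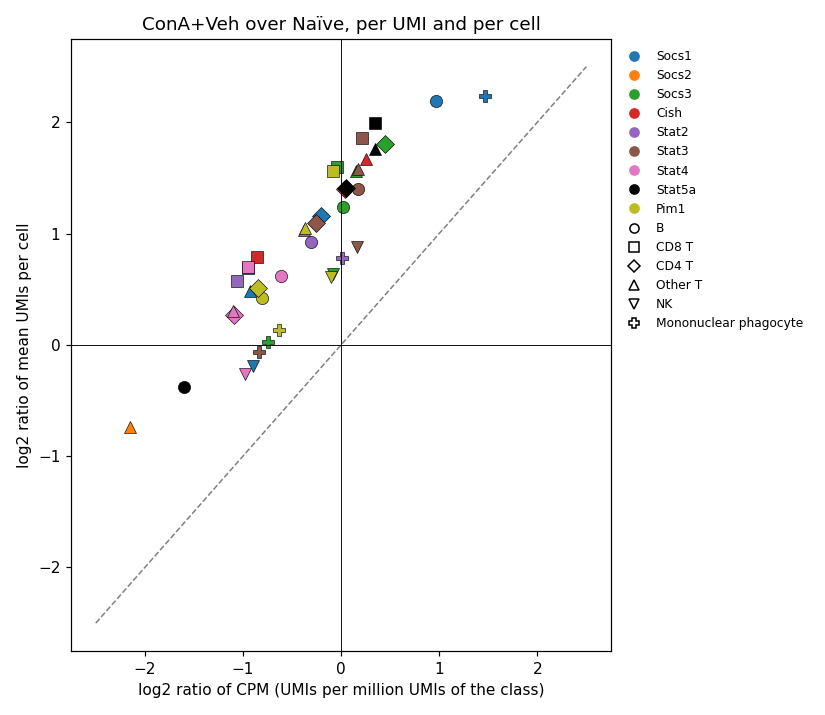
log2 ratio of ConA+Veh over Naïve for the 41 pairs of a gene (color) and a class (symbol), as CPM on the x axis and as mean UMIs per cell with no depth correction on the y axis; the dashed line marks equal values. All points lie above the line, and the points below 0 per cell are *Socs2* in other T-like, *Stat5a* in B-like, *Stat4* and *Socs1* in NK-like and *Stat3* in mononuclear phagocyte-like cells.

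With cells thinned to the same number of UMIs and shallower cells left out, shares of cells still differed between classes. The shares of cells with a UMI of *Pim1* were 46.5% to 48.4% in NK-like cells and 8.27% to 11.9% in B-like cells of the 4 libraries. Those of *Cish* in B-like cells were 0 of 344 in ConA+TCDD, which allows up to 0.872%, and 0.0958% to 0.402% elsewhere. The plot of shares after thinning gives 4 of the genes.

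**Figure D4:**
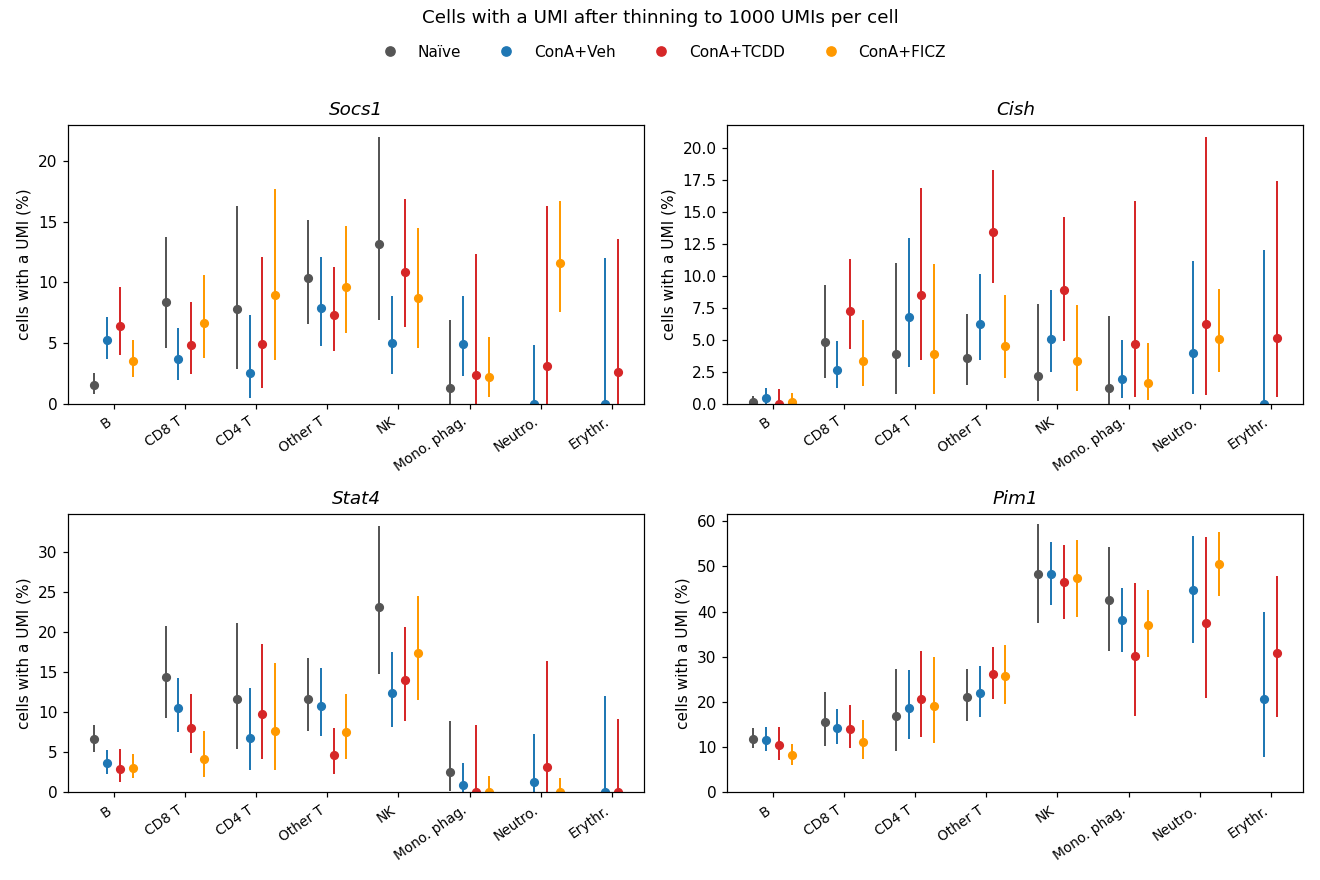
Share of cells with at least 1 UMI (%, axis from 0) of *Socs1*, *Cish*, *Stat4* and *Pim1* after thinning to 1000 UMIs per cell, by class and library. Bars are exact 95% binomial intervals. Cells under 1000 UMIs were left out, and classes with under 20 cells left are not drawn. *Cish* in other T-like cells was highest in ConA+TCDD at 13.5%, and *Stat4* in NK-like cells in Naïve at 23.1%.

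The rest of the pathway was read from lists of genes by role, and single values in parentheses are log2 ratios. Of receptor genes, 77 pairs of a gene and a class were compared for ConA+Veh over Naïve, and 5 were higher and 24 lower (6.49% and 31.2%), with a median log2 ratio of -0.42. Over all genes tested 9.23% were higher and 11.0% lower in this comparison, and the counts of the lists that follow stand beside the same shares. The IL-2 receptor alpha chain *Il2ra* rose in B-like (1.69), CD8 T-like (1.74), CD4 T-like (2.31) and other T-like cells (1.21). The IL-7 receptor *Il7r*, which acts through STAT5, fell by 4.32 in CD8 T-like cells, from 477 to 23.9 CPM, by 2.75 in CD4 T-like and by 2.38 in other T-like cells. *Il10ra* fell in B-like (-1.70), CD8 T-like (-2.00), other T-like (-2.09), NK-like (-1.26) and mononuclear phagocyte-like cells (-1.35). *Il6ra* fell in CD8 T-like (-2.54), other T-like (-1.89), B-like (-1.32) and mononuclear phagocyte-like cells (-1.37). *Ifngr2* fell in CD8 T-like (-1.14) and CD4 T-like cells (-1.06), and *Il10rb* in B-like (-1.32), other T-like (-1.58) and NK-like cells (-1.06). The largest rise of the list was *Il12rb2*, the IL-12 receptor chain upstream of STAT4, at 2.46 in CD8 T-like cells (3 and 116 UMIs, 0.88 to 4.76). It was picked as the largest from these same values and passed the minimum of UMIs only through ConA+Veh.

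Ligand genes had few UMIs, and 8 of 54 pairs were compared for ConA+Veh over Naïve, of which 3 were higher and 4 lower. A pair could pass the minimum of UMIs through 1 library alone, so these counts are not read as a result about ligands. *Ifng*, an inducer of *Socs1*, fell from 40.9 to 14.5 CPM in CD8 T-like cells, by 1.66 on the log2 scale in other T-like and by 1.34 in NK-like cells (653 to 258 CPM). In CD8 T-like cells ConA+TCDD over ConA+Veh was then 1.19 and ConA+FICZ over ConA+TCDD -2.13. *Il2*, which acts through STAT5, was 2.88 CPM in the CD4 T-like cells of Naïve (1 UMI) and 56.4 in ConA+Veh (77 UMIs), a ratio of 4.29 (1.77 to 9.62). It was 4.68 CPM in ConA+TCDD, a fall of *Il2* by 3.59, and 7.52 CPM in ConA+FICZ, a fall by 2.91. These pairs passed the minimum of UMIs only through ConA+Veh, so the rise and both falls rest on that 1 value. The number of cells that held the 77 UMIs was not counted. The paper reported more secreted IL-2 after ConA and also after TCDD, a measure of protein and not of RNA in this class.

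Of the kinases, *Jak1*, *Jak2*, *Jak3* and *Tyk2*, 0 of 21 pairs were higher and 2 lower for ConA+Veh over Naïve. The largest fall was *Tyk2* in mononuclear phagocyte-like cells (-1.33). *Jak2* had the largest ratio above 0, 0.97 in CD4 T-like cells, within 2-fold, and in ConA+FICZ over ConA+Veh it fell by 1.07 in CD8 T-like and by 1.09 in CD4 T-like cells. Of other STAT genes, *Stat5b* fell for ConA+Veh over Naïve in B-like (-1.19), CD8 T-like (70.6 to 35.2 CPM) and other T-like cells (-1.40), and *Stat6* in B-like (-1.06), CD4 T-like (69.0 to 34.4 CPM) and other T-like cells (-1.14).

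Of other inhibitors 1 of 30 pairs was higher and 5 lower for ConA+Veh over Naïve. The phosphatase gene *Ptpn2* rose by 1.09 in mononuclear phagocyte-like cells, and *Pias1*, an inhibitor of STAT signaling, fell in CD8 T-like (-1.51), CD4 T-like (-1.43) and other T-like cells (-1.52). The paralogs *Pim2* and *Pim3* had 0 higher and 5 lower of 9 pairs. *Pim2* fell in B-like (-1.26), CD8 T-like (-1.32) and NK-like cells (-1.05), *Pim3* in B-like (-1.66) and NK-like cells (-1.65), while *Pim2* rose by 1.54 in CD4 T-like cells of ConA+FICZ over ConA+Veh. STAT target genes had 4 higher and 9 lower of 38 pairs. *Junb* fell in B-like (-2.92), CD8 T-like (-2.24), CD4 T-like (-2.44), other T-like (-2.51), NK-like (-1.22) and mononuclear phagocyte-like cells (-1.11), and *Ccnd2*, a cyclin gene, rose in B-like (2.09) and mononuclear phagocyte-like cells (1.48). *Myc* fell in B-like (-1.77) and rose in mononuclear phagocyte-like cells (1.69) in the same comparison, and rose in B-like (1.08) and CD4 T-like cells (1.16) in ConA+FICZ over ConA+Veh.

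For ConA+TCDD over ConA+Veh the lists of kinases, other inhibitors, Pim paralogs and STAT targets had no pair past 2-fold, of 17, 26, 9 and 32 pairs. The receptors had 1 higher and 3 lower of 66, and the ligands 1 and 1 of 10, beside 0.546% higher and 1.48% lower over all genes. For ConA+FICZ over ConA+Veh the receptors had 2 and 2 of 88, the ligands 4 and 4 of 12, the STAT targets 3 and 0 of 44, the kinases 0 and 2 of 23, and the Pim paralogs 1 and 0 of 11. The other inhibitors had none, of 32 pairs. Over all genes tested 1.42% were higher and 1.54% lower in that comparison. Of the ligand pairs only 10 of 45 and 12 of 63 had enough UMIs in the 2 comparisons, so their counts are not read as a result about ligands.

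Over the 28 points of a class and a library with at least 50 cells, the genes whose level was most like that of each of the 9 were named from 7011 genes with at least 500 UMIs, by Pearson's r of log2(CPM + 10). The points share libraries and depth, and r is a description. *Stat4* was most like *Bcl2* (0.96), *Vps37b* (0.94) and *Jakmip1* (0.93). *Stat2* was most like *Cmpk2* (0.93), *Atp6v1e1* (0.93) and *Rtp4* (0.92), and *Stat5a* like *Aebp2* (0.91), *Fasn* (0.88) and *Srpk1* (0.88). *Socs3* was most like *Icam1* (0.90), *Gnb1* (0.90) and *Bnip2* (0.89), and *Pim1* like *Spty2d1* (0.90), *Tab2* (0.90) and *Ptpre* (0.88). *Stat3* was most like *Nab1* (0.87), *Capzb* (0.86) and *Ccdc12* (0.86), *Cish* like *Tesc* (0.81), *Pde4d* (0.80) and *Stk39* (0.80), and *Socs1* like *Ttc39b* (0.77), *Jak3* (0.76) and *Klhl6* (0.75). *Socs2*, with 232 UMIs over the points, was most like *Ehd3* (0.77), *Serpina3f* (0.77) and *Ly6c1* (0.74). Within the 9 genes the highest r was that of *Socs3* and *Stat3* (0.81) and the lowest that of *Stat2* and *Stat5a* (-0.77).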

How the data were processed

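Liver mononuclear cells were measured in 4 libraries, 1 for each group. The authors aligned and counted the reads with Cell Ranger (3.0.2 in the matrix headers) on mm10 and deposited whole UMI counts per gene and cell. The libraries held 1880 to 2779 cells and 5952445 to 19252211 UMIs. A group was taken from the sample labels.

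Each cell joined the class with the highest share of its markers detected, with at least 3 detected. Cells in which a second class reached at least 3 markers and at least 0.5 of that share were left out as possible doublets (34 to 127 per library), and no doublet caller was run. NK-like cells had no *Cd3e* UMI. UMIs were summed per class and library and divided by the class total. With 1 library per group no test was possible, and a fixed size, 2-fold with at least 50 UMIs in both libraries together, stood in for one. A gene at 0 was read against a floor of 3 counts. Shares of cells were taken after thinning to 1000 UMIs, with shallower cells left out. Shares without thinning were taken over all cells of a class. The named genes are the 9 genes, genes of the pathway lists past 2-fold in at least 2 classes of 1 comparison, the largest rise and fall of each list, and the 3 genes most like each of the 9. One gene of the pathway lists, and the counts of its list, are not reported here. The 9 genes and all lists were chosen with earlier results of these data known. A further split for naive-type T cells did not separate naive cells and was not used. Promoter sequences are from RefSeq (GRCm38.p6) and gene positions from GENCODE on GRCm38.

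The alternatives were 2 or 4 markers, leaving out cells over 10% mitochondrial UMIs or under 200 genes, leaving out cells with no *Cd52* and at least 3 *Rbm3* UMIs, a mean over cells, totals without ribosomal protein and mitochondrial genes, no depth correction, and minimums of 20 or 100 UMIs. Scripts ran in Python 3.11.15 with numpy 2.4.6, scipy 1.17.1, pandas 2.3.3 and matplotlib 3.10.9, and the ratios and intervals were tested on simulated data. These were Poisson sums per class, with no clustering of UMIs in single cells. They check the calculation and cannot show how well the intervals hold in the real cells.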

Additional observations from a re-analysis of the deposited data

Results flagged for a closer look

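Several genes moved in opposite directions in different classes under the same comparison, with both intervals away from 0. For each, the class of the largest rise and that of the largest fall were picked from these same values. Each difference is therefore the largest to be found and not a typical one. These differences rest on 1 library per group and were not tested. For ConA+Veh over Naïve, *Socs1* was 1.47 in mononuclear phagocyte-like and -0.95 in CD8 T-like cells, a difference of 2.42 on the log2 scale. Counted per cell with no correction for depth, *Socs1* was higher in ConA+Veh in both classes. There CD8 T-like cells held 0.278 UMIs in Naïve and 0.45 in ConA+Veh, and mononuclear phagocyte-like cells 0.060 and 0.284. For ConA+TCDD over ConA+Veh, *Socs1* was 0.42 in other T-like and -0.59 in CD4 T-like cells, a difference of 1.01.

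*Socs1* was 3.24 in neutrophil-like and -0.32 in B-like cells for ConA+FICZ over ConA+Veh, a difference of 3.55. *Stat5a* was 0.97 in B-like and -0.50 in CD8 T-like cells in that comparison, a difference of 1.47, and *Pim1* was 0.31 in neutrophil-like and -0.45 in CD8 T-like cells, a difference of 0.76. In ConA+FICZ over ConA+TCDD, *Socs1* was 1.58 in CD4 T-like and -0.72 in B-like cells, a difference of 2.30, and *Stat4* was 0.72 in other T-like and -0.71 in CD4 T-like cells, a difference of 1.43.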

How the results depend on the processing

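With no depth correction, 21 of the 26 ratios below 0 for ConA+Veh over Naïve turned above 0, which follows from the shift in UMIs per cell. Among ratios past 2-fold the direction turned for 4 pairs, where *Stat2* in CD8 T-like cells was 0.58, *Stat4* in CD4 T-like cells 0.27, *Stat4* in other T-like cells 0.31 and *Socs2* over all cells 0.067 for ConA+Veh over Naïve. *Stat2* in CD8 T-like cells was also 0.075 as a mean of per-cell levels. Of 217 ratios, 63 moved beyond their counting interval with no depth correction and 60 with the per-cell mean. The count was 8 without the *Cd52* and *Rbm3* cells and 5 without cells of high mitochondrial share. It was 0 with fewer or more markers for a gate and for totals without ribosomal protein and mitochondrial genes. Another minimum of UMIs changes only which pairs are counted and not the ratio, so it could move none and is no check here.

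Counts of pairs past 2-fold are given as higher and lower. For ConA+Veh over Naïve (1 and 5) they were 5 and 2 with the per-cell mean, where of the 5 lower pairs *Socs2* in other T-like cells alone stayed past 2-fold, 19 and 0 with no depth correction and 0 and 2 with at least 100 UMIs. There were 2 higher without the *Cd52* and *Rbm3* cells, without ribosomal and mitochondrial genes, and with at least 20 UMIs. For ConA+TCDD over ConA+Veh (0 and 0) 2 were higher with 2 markers, both *Cish*, and 1 and 1 with the per-cell mean. There 1 was lower with 4 markers, with no depth correction and with 20 UMIs. For ConA+FICZ over ConA+Veh (2 and 1) 4 were higher without cells of high mitochondrial share and with no depth correction. In that comparison 0 were lower with 4 markers, 2 others were lower with the per-cell mean (*Stat2* in CD8 T-like and *Stat4* in CD4 T-like cells) in place of *Cish* in mononuclear phagocyte-like cells, and 1 and 0 passed with 100 UMIs. For ConA+FICZ over ConA+TCDD (1 and 0) the counts were 0 and 2 with the per-cell mean, with *Socs1* in CD4 T-like cells lost, and 2 and 1 with no depth correction, and 1 was lower with 2 markers. The cause was not tested, except that a minimum of 100 UMIs leaves fewer pairs.

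Of 252 shares, 196 moved without thinning and 134 at 500 UMIs. No paired analysis was possible because each group is 1 library. Neutrophil-like and mononuclear phagocyte-like cells had fewer than 50 cells in some libraries, so no ratio was counted there.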
